A study of Mus musculus with 6 samples.

Results

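Some platelet surface receptors carry a motif named for inhibition, and the genes described here encode 3 such receptors and 4 phosphatases that act with or beside them. Whether each receptor restrains activation was not measured. They were chosen by symbol, Pecam1, Treml1 and Ceacam1 for the receptors and Ptpn6, Ptpn11, Ptprj and Inpp5d for the phosphatases, and all 7 were found among the 24346 symbols of each expression table. RNA was sequenced from blood platelets of mice homozygous for β3(R734C), an amino acid replacement in the tail that integrin β3 turns to the cytoplasm, knocked into the gene (3 libraries, titled Homo), and from platelets of wild-type mice (3 libraries, titled WT). The labels give no age, sex, strain or treatment of the mice, and the genotype was the only labelled difference. Knock-in and wild type were compared to find platelet mRNAs that differ, in a study of a mutation linked to large platelets in low number. Whether each library is a separate mouse is not stated, so a p-value here reflects only how these samples vary, and that variation may be technical.

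An ITIM, the immunoreceptor tyrosine-based inhibition motif, is a short stretch in the cytoplasmic tail of a receptor whose tyrosine is phosphorylated by Src family kinases. The phosphorylated motif binds the SH2 domains of the tyrosine phosphatases SHP-1 (Ptpn6) and SHP-2 (Ptpn11) or of the inositol lipid phosphatase SHIP1 (Inpp5d), which reverse signals sent by activating receptors such as the collagen receptor GPVI. In platelets PECAM-1 is known as a restraint on collagen signalling, whereas CD148 (Ptprj) removes the inhibitory phosphate of Src family kinases and so also sets how readily a platelet can be activated.

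The motif is what the receptors share, so the bases that encode it are shown for each of the 3, and for G6b, a platelet ITIM receptor that is not one of the 7 genes. They come from a GENCODE release M21 transcript of each gene (GRCm38, the assembly of build mm10), 5′ to 3′ on the coding strand, with the codon of the tyrosine in capitals. Transcripts tagged as consensus coding sequence (CCDS) were taken before others, and among them the longest coding sequence was used. A motif was any 6 residues, past the most hydrophobic stretch of the protein, with isoleucine, leucine, valine or serine first, tyrosine in the third place and isoleucine, leucine or valine last. For the related switch motif the first residue was threonine and the last isoleucine or valine.
Pecam1 ITIM: gtagaaTACacagaagtg
Pecam1 switch motif: acggtgTACagtgagatc
Treml1 ITIM: gtgacaTATgccacagtt
Ceacam1 ITIM: gtcgcaTACactgtcctg
Ceacam1 switch motif: acagttTATtcagaagta
G6b ITIM: ctgcacTACgctgatctg
G6b switch motif: actgtcTATgcggttgta

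The search found 1 ITIM in each of the 4 receptors and 1 switch motif in Pecam1, Ceacam1 and G6b, each within a single coding exon. The Pecam1 ITIM lies at chr11:106679577-106679594 (minus strand) around tyrosine 679 of a protein of 727 residues, and its switch motif at chr11:106671758-106671775. The Treml1 ITIM lies at chr17:48366812-48366829 (plus strand), around tyrosine 291 of 322 residues. In Ceacam1, the ITIM lies at chr7:25463874-25463891 (minus strand) around tyrosine 488 of 521 residues, and the switch motif at chr7:25463793-25463810. Ceacam1 has 11 annotated transcripts and Pecam1 has 8, and a gene-level value does not say which of them, or which cytoplasmic tail, was measured. The phosphatase genes lie on other chromosomes of the same build: Ptpn6 at chr6:124720707-124738714, Ptpn11 at chr5:121130533-121191397 and Ptprj at chr2:90429754-90580647, all on the minus strand, and Inpp5d at chr1:87620312-87720507 on the plus strand.

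All libraries carried platelet mRNA at high level. The 10 platelet markers, led by Pf4, summed to between 48379 and 53707 FPKM (fragments per kilobase of transcript and per sequencing depth) in knock-in and between 52523 and 54566 FPKM in wild-type libraries. Leukocyte mRNA was scarce: Ptprc, which encodes the leukocyte antigen CD45, was 0 to 0.0209 FPKM in knock-in and 0 to 0.0594 FPKM in wild-type libraries. The 11 measured neutrophil markers summed to at most 2.08 FPKM in knock-in and 2.35 FPKM in wild-type libraries, with S100a8 the most abundant in both and Camp, Elane and Mpo listed at 0 in all 6 libraries. The 6 B cell markers summed to at most 0.693 FPKM in knock-in and 0.185 FPKM in wild-type libraries, led by Cd79b in knock-in and Cd79a in wild-type libraries, and Ms4a1, Pax5 and Cd22 were listed at 0 throughout. The 9 T and NK cell markers summed to 5.02 to 8.83 FPKM in knock-in and 2.67 to 4.42 FPKM in wild-type libraries, nearly all of it Nkg7, and Cd3e and Cd3d were listed at 0. Of the 10 monocyte and macrophage markers, Lyz2 reached 7205 to 9127 FPKM in knock-in and 7033 to 8240 FPKM in wild-type libraries, while Ms4a7 was listed at 0 and none of the rest exceeded 3.21 FPKM. The 8 measured erythroid markers, led by Hba-a1, summed to 24541 to 178193 FPKM in knock-in and 37397 to 92489 FPKM in wild-type libraries. Haemoglobin mRNA made up 20.4% of the total in knock-in library 1, 12.8% in wild-type library 1 and 3.2% to 7.2% in the other 4. Depth relative to wild-type library 1, from the commonest ratio of low values, was 0.882 to 1.05.

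The order of the levels was led by the receptors in both genotypes. Treml1, which encodes the TREM-like transcript 1 receptor stored in alpha granules, was among the 78 most abundant mRNAs of every library. Pecam1 was next, with ranks 351 to 364 in knock-in and 296 to 303 in wild-type libraries. In knock-in platelets the means on the FPKM scale then ran Ceacam1, Ptpn11, Ptprj, Inpp5d and Ptpn6, and the neighbours Ptpn11 and Ptprj overlapped in their ranges. In wild-type platelets they ran Ptprj, Ceacam1, Ptpn11, Inpp5d and Ptpn6, and the ranges overlapped for Ptprj and Ceacam1 and for Ptpn11 and Inpp5d. All other neighbours in both orders were apart. Summed, the 7 genes came to 1801 to 2008 FPKM in knock-in and 2061 to 2151 FPKM in wild-type libraries. As a share of all FPKM this was 0.210% to 0.265% in knock-in and 0.297% to 0.334% in wild-type libraries. The total itself differed, at 758381 to 856863 FPKM in knock-in and 641278 to 708432 FPKM in wild-type libraries, so the gap in share is partly one of totals.

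**Figure D1:**
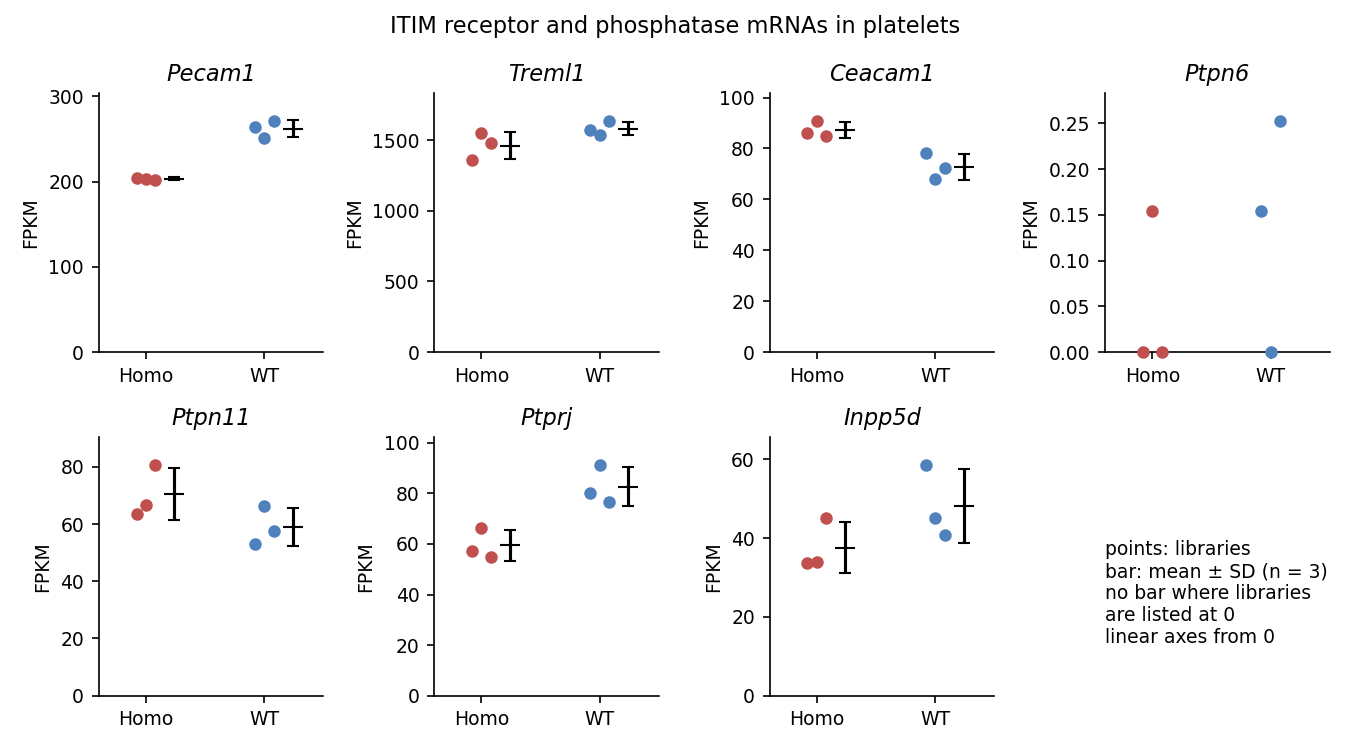
FPKM (linear axes from 0) of the 7 genes in each of the 3 Homo (knock-in) and 3 WT libraries, as points, with the mean ± SD of 3 as a bar except for Ptpn6, which was listed at 0 in 3 libraries. The knock-in points of Pecam1 and Ptprj lie below all wild-type points and those of Ceacam1 above them, while Ptpn6 stays under 0.3 FPKM.

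Pecam1 was lower in knock-in platelets, and it was the 1 gene of the 6 testable ones that passed. Its product PECAM-1, also known as CD31, is an adhesion receptor of the immunoglobulin family. It measured 205, 204 and 201 FPKM in knock-in libraries 1, 2 and 3, against 264, 251 and 271 FPKM in wild-type libraries 1, 2 and 3. The groups did not overlap, and the knock-in libraries lay closer to each other than the wild-type ones did. The mean was 203 ± 1.66 FPKM in knock-in and 262 ± 9.80 FPKM in wild-type platelets (SD, n = 3 each), 77.6% of the wild-type level. The log2 fold change of FPKM + 1 was -0.36 (SE 0.09, limma adjusted p = 0.0363), or 1.29-fold lower in knock-in platelets, lower in 3 of 3 knock-in libraries. Over all 4859 genes tested, 8.36% passed this threshold of 0.05, 3.99% as lower and 4.36% as higher in the knock-in. The call held without knock-in library 1, the richest in haemoglobin (adjusted p = 0.0384), and without both libraries richest in haemoglobin (0.0290). It was lost without knock-in library 2 (0.114) or 3 (0.125), without wild-type library 1 (0.0647), 2 (0.0990) or 3 (0.136), with no filter on low values (0.0750), with no variance trend (0.153) and with a trend on transcript length taken out (0.0792).

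Endothelial cells and leukocytes also express Pecam1. The 7 endothelial markers summed to 8.87 to 12.9 FPKM in knock-in and 7.15 to 9.90 FPKM in wild-type libraries, most of it Tie1 and Kdr, with Tie1 the most abundant in both groups. Cdh5, which encodes the endothelial cadherin, was at most 0.125 FPKM in knock-in libraries and was listed at 0 in all wild-type ones, and Robo4 was listed at 0 in all 6. The medians of that sum were 11.1 FPKM in knock-in and 9.85 FPKM in wild-type libraries. Its main genes went opposite ways. Tie1 averaged 6.63 FPKM in knock-in and 4.56 FPKM in wild-type platelets, with overlap (limma adjusted p = 0.315). Kdr averaged 2.91 FPKM in knock-in and 3.99 FPKM in wild-type platelets (limma adjusted p = 0.449). It was lower without overlap, as were 15.8% of all tested genes. In such bulk samples, fewer cells of a type and less RNA per cell cannot be told apart.

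Treml1 was the most abundant of the 7 and did not pass the test. It measured 1356, 1546 and 1479 FPKM in knock-in libraries 1, 2 and 3, against 1570, 1539 and 1633 FPKM in wild-type libraries 1, 2 and 3. Knock-in library 1 was the lowest of the 6, and knock-in library 2 lay above wild-type library 2, so the groups overlapped. The means were 1460 ± 96.6 FPKM in knock-in and 1581 ± 48.0 FPKM in wild-type platelets (SD, n = 3 each), with a log2 fold change of -0.12 (95% interval -0.30 to 0.07, limma adjusted p = 0.437). That value was -0.06 without knock-in library 1, -0.07 without both libraries richest in haemoglobin, -0.21 with quantile normalization and -0.24 with a trend on transcript length taken out (adjusted p = 0.0812), not called in any of them.

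Ceacam1, which encodes a carcinoembryonic antigen-related adhesion receptor known to inhibit GPVI signalling in mouse platelets, lay on the other side. It measured 86.1, 90.7 and 85.0 FPKM in knock-in libraries 1, 2 and 3, against 78.1, 68.0 and 72.1 FPKM in wild-type libraries 1, 2 and 3. All knock-in libraries were above all wild-type libraries. The means were 87.3 ± 3.03 FPKM in knock-in and 72.7 ± 5.08 FPKM in wild-type platelets (SD, n = 3 each). The log2 fold change of 0.26 did not pass (95% interval 0.02 to 0.50, limma adjusted p = 0.167). Its near relative Ceacam2 averaged 0.798 FPKM in knock-in and 0.879 FPKM in wild-type platelets, and reads shared by these similar genes could have been divided between them.

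The levels of the 3 receptors were also summed in each library. Their summed FPKM was 1646, 1841 and 1765 in knock-in libraries 1, 2 and 3, against 1912, 1858 and 1976 in wild-type libraries 1, 2 and 3, a mean difference of -0.13 on the log2 scale, given without a test. No knock-in library exceeded the lowest wild-type sum. Treml1 supplied 82.3% to 84.0% of that sum in knock-in and 82.1% to 82.8% in wild-type libraries. The share of Pecam1 was 11.1% to 12.4% in knock-in and 13.5% to 13.8% in wild-type libraries, and the share of Ceacam1 was 4.81% to 5.23% in knock-in and 3.65% to 4.09% in wild-type libraries. Neither of these 2 shares overlapped between the groups.

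**Figure D2:**
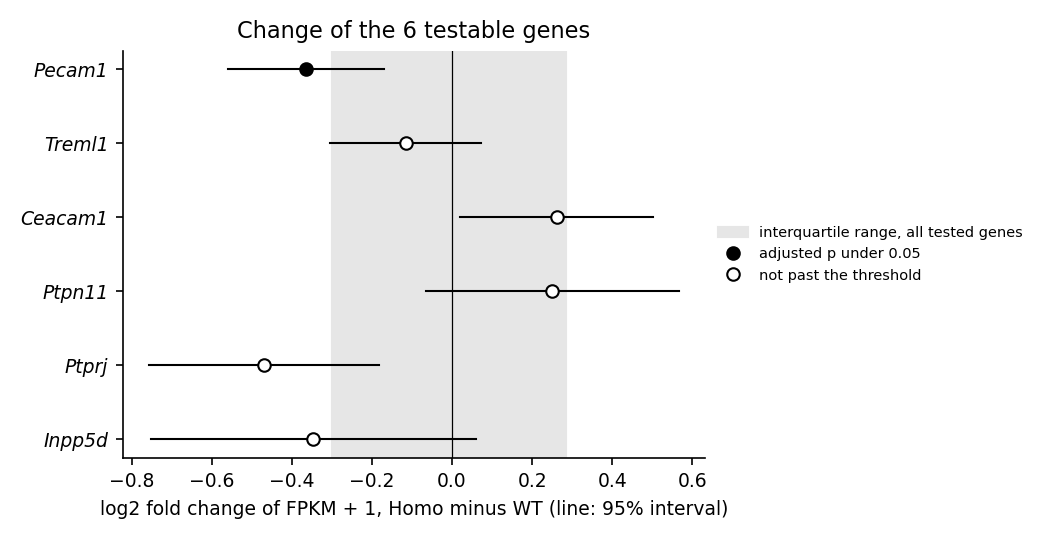
Log2 fold change of FPKM + 1 (Homo minus WT) of the 6 testable genes, with the 95% interval of the limma fit. The filled point is Pecam1 at -0.36, which passed an adjusted p of 0.05; open points did not pass, and the grey band is the interquartile range of the 4859 tested genes, -0.30 to 0.28.

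Of the 4 phosphatases, Ptpn6 was nearly unmeasured and none of the other 3 passed the test. Ptpn6 encodes SHP-1, the SH2-domain phosphatase best known from leukocytes. It was listed at 0 in knock-in libraries 1 and 3 and measured 0.154 FPKM in knock-in library 2, against 0.155, 0 and 0.252 FPKM in wild-type libraries 1, 2 and 3. The mean over the 6 samples was under the limit of 1 FPKM, so Ptpn6 was not tested. Exons of Ptpn6 overlap Gm20531, an annotated transcript on the opposite strand, and the library kits do not mark strand. Values of 0 in such tables can be failed estimates, and the highest of the other 3 values was 0.252 FPKM.

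Ptpn11 encodes SHP-2, which has the same arrangement of tandem SH2 domains before a phosphatase domain. It measured 63.7, 66.8 and 80.8 FPKM in knock-in libraries 1, 2 and 3, against 53.1, 66.3 and 57.6 FPKM in wild-type libraries 1, 2 and 3. Knock-in library 3 was the highest of the 6, and wild-type library 2 lay within the knock-in range. The means were 70.4 ± 9.10 FPKM in knock-in and 59.0 ± 6.68 FPKM in wild-type platelets (SD, n = 3 each), and the log2 fold change of 0.25 did not pass (95% interval -0.07 to 0.57, limma adjusted p = 0.302). Ptpn6 was 0% to 0.231% of the Ptpn11 level in knock-in and 0% to 0.438% in wild-type libraries.

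Ptprj encodes CD148, the abundant receptor-like tyrosine phosphatase of platelets. It measured 57.2, 66.4 and 54.8 FPKM in knock-in libraries 1, 2 and 3, against 80.1, 91.3 and 76.6 FPKM in wild-type libraries 1, 2 and 3. All knock-in libraries were below all wild-type libraries. The means were 59.5 ± 6.15 FPKM in knock-in and 82.7 ± 7.72 FPKM in wild-type platelets (SD, n = 3 each), 71.9% of the wild-type level. The log2 fold change of -0.47 was the largest in size among the 6 but missed the threshold (SE 0.13, 95% interval -0.76 to -0.18, limma adjusted p = 0.0558). Ptprj passed as lower at a mean FPKM of at least 5 (adjusted p = 0.0352), with weighted samples (0.0388), under robust variance estimation (0.0405) and once libraries were rescaled on genes other than erythroid and top ones (0.0425).

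Inpp5d encodes SHIP1, which breaks down the lipid product of PI3-kinase. It measured 33.7, 34.0 and 45.04 FPKM in knock-in libraries 1, 2 and 3, against 58.6, 45.02 and 40.8 FPKM in wild-type libraries 1, 2 and 3. The highest value was that of wild-type library 1, and knock-in library 3 lay above wild-type library 3. The means were 37.6 ± 6.48 FPKM in knock-in and 48.1 ± 9.30 FPKM in wild-type platelets (SD, n = 3 each). The log2 fold change of -0.35 did not pass (95% interval -0.75 to 0.06, limma adjusted p = 0.269), and it was -0.13 without both libraries richest in haemoglobin.

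Of the 6 tested genes, 1 was called lower and 0 higher, 3 kept their groups apart without overlap, as did 30.7% of all tested genes, and the median log2 fold change was -0.23, beside -0.01 over all genes tested. None of the 6 reached the 2-fold limit that the series' design text names. The 10 platelet markers, all tested, had 2 called lower, Tubb1 and Itgb3, and 0 higher. In 7 of these markers the groups did not overlap, and the median log2 fold change of the 10 was -0.19. Over all genes tested, 3.99% were called lower and 4.36% higher.

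Ratios between 2 genes within a library, which no scaling of a library can alter, were formed for all 15 pairs of the 6 tested genes. They did not overlap between the genotypes in 10 pairs and overlapped in 5, among them Ptprj to Inpp5d and Pecam1 to Ptprj. The 15 pairs are built from the same 6 genes, so they are not independent. The share without overlap over pairs of all tested genes was not computed, so the count of 10 cannot be set against it. The 4 ratios given here were chosen after the levels were seen, because they stood apart, and carry no test. Pecam1 was 2.37, 2.24 and 2.37 times the Ceacam1 level in knock-in libraries 1, 2 and 3, against 3.37, 3.70 and 3.75 times in wild-type libraries 1, 2 and 3. The receptor mix was therefore poorer in Pecam1 relative to Ceacam1 in every knock-in library. Ptpn11 was 1.11, 1.01 and 1.48 times the Ptprj level in knock-in libraries 1, 2 and 3, against 0.663, 0.725 and 0.752 times in wild-type libraries 1, 2 and 3. By FPKM, SHP-2 mRNA was thus below CD148 mRNA in each wild-type library and above it in each knock-in library. In knock-in library 2 they were nearly equal, at 66.8 FPKM for Ptpn11 and 66.4 FPKM for Ptprj. The ratio of Ptpn11 to Inpp5d was 1.79 to 1.97 in knock-in and 0.906 to 1.47 in wild-type libraries, without overlap. Treml1 was 6.63 to 7.60 times the Pecam1 level in knock-in and 5.96 to 6.12 times in wild-type libraries, also without overlap. A trend on transcript length can alter such a ratio. With it taken out, the log2 fold changes were -0.24 for Treml1 and -0.28 for Pecam1, against -0.12 and -0.36 as reported.

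**Figure D3:**
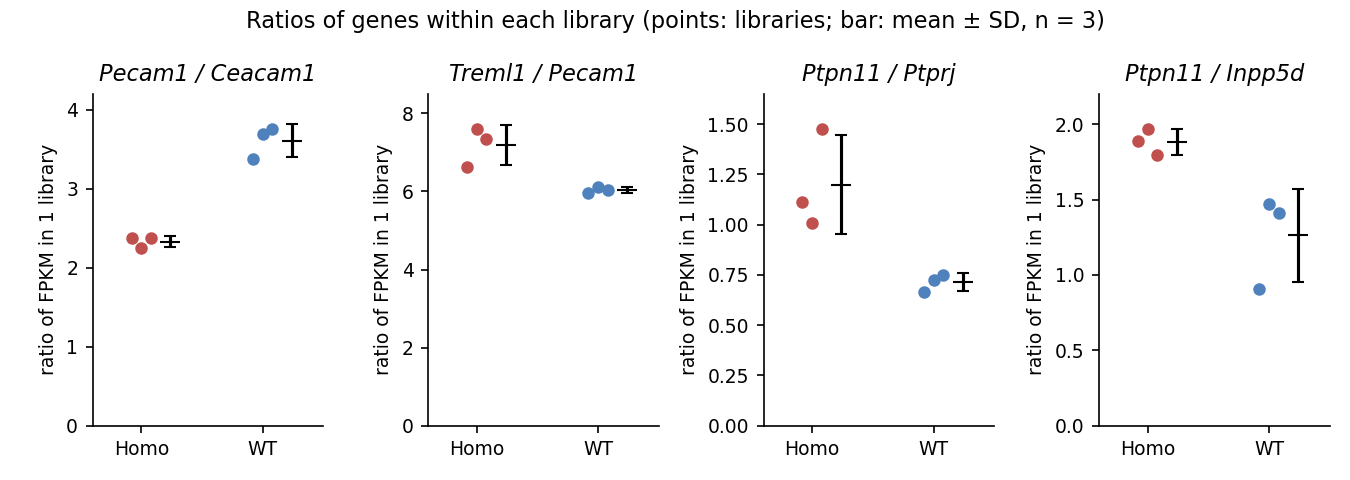
Ratio of the FPKM of 2 genes within each of the 3 Homo and 3 WT libraries (linear axes from 0; points are libraries, the bar is the mean ± SD of 3). Pecam1 to Ceacam1 was 2.24 to 2.37 in knock-in and 3.37 to 3.75 in wild-type libraries, and the 4 ratios shown were chosen from 15 pairs because they did not overlap.

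Among the genes whose profile over the 6 libraries was most like that of Pecam1 were Ppp1r13b and Pttg1ip, with root-mean-square differences of 0.036 and 0.044 between log2 profiles centred on their own means. The 6 libraries are the points of this measure, and genes of equal fold change are close by it whatever they do. Ppp1r13b, which encodes a p53-binding protein, averaged 25.0 FPKM in knock-in and 33.7 FPKM in wild-type platelets (limma adjusted p = 0.0653). Pttg1ip, encoding a transmembrane binding partner of securin, averaged 3694 FPKM in knock-in and 4735 FPKM in wild-type platelets (limma adjusted p = 0.0286).

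Around these genes, other ITIM receptors were nearly absent apart from G6b. Of 16 listed, 15 had a mean under 1 FPKM, and Lair1, Siglece, Clec4a2 and Cd300lf were listed at 0 throughout. G6b, the inhibitory receptor of the megakaryocyte lineage, measured 554, 600 and 564 FPKM in knock-in libraries 1, 2 and 3, against 459, 568 and 577 FPKM in wild-type libraries 1, 2 and 3. Wild-type library 1 was the lowest and the groups overlapped (log2 fold change 0.11, limma adjusted p = 0.608). Of the ITIM receptors listed, G6b was the second most abundant after Treml1 by FPKM, above Pecam1 in every library. Exons of G6b overlap those of Ly6g6c on the opposite strand.

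Of 18 other protein tyrosine phosphatase genes, 6 were testable and 0 passed (limma), with a median log2 fold change of -0.06. Over all genes tested, 8.36% passed and the median was -0.01. Among the 6, the 1 gene with an unadjusted p under 0.05 was Ptpn1, named here after its values were seen, at 86.6 ± 6.11 FPKM in knock-in and 121 ± 16.4 FPKM in wild-type platelets (SD, n = 3 each; limma adjusted p = 0.0620). Ptpn18, a phosphatase of the PEST group, was the most abundant, at 274 ± 12.4 FPKM in knock-in and 245 ± 4.34 FPKM in wild-type platelets (SD, n = 3 each; limma adjusted p = 0.290). It was 3.51 to 4.16 times the Ptpn11 level in knock-in and 3.67 to 4.55 times in wild-type libraries. Ubash3b, another phosphatase gene, which was called lower, is counted below with the genes that restrain Src family kinases. Of 20 other inositol lipid phosphatase genes, 12 were testable, 2 fell and 0 rose, with a median of -0.22, beside 3.99% lower, 4.36% higher and a median of -0.01 over all genes tested. Without both libraries richest in haemoglobin, 2 of these 12 were called lower and 2 higher. More genes were called over the whole table in that setting, so these counts cannot be set against the shares just given. Mtmr14, a myotubularin-related phosphatase gene and the most abundant of the list by the mean over all 6 libraries, though below Inpp5a in the knock-in, fell to 52.9, 59.7 and 44.6 FPKM in knock-in libraries, against 89.7, 99.5 and 84.8 FPKM in wild-type libraries (log2 fold change -0.80, SE 0.14, limma adjusted p = 0.0136). Inpp5a, whose product inactivates the soluble messenger inositol trisphosphate, fell to 59.2 ± 5.02 FPKM in knock-in, against 82.7 ± 4.99 FPKM in wild-type platelets (SD, n = 3 each; log2 fold change -0.48, limma adjusted p = 0.0394).

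Of 7 Src family kinase genes, which phosphorylate ITIMs, 3 were testable, and all 3 had negative log2 fold changes without overlap between the groups, where 15.8% of all tested genes were lower without overlap. Fyn fell to 42.6, 48.1 and 52.9 FPKM in knock-in libraries, against 67.2, 69.3 and 67.4 FPKM in wild-type libraries (log2 fold change -0.50, limma adjusted p = 0.0381). Lyn, the most abundant, measured 280 ± 17.7 FPKM in knock-in and 351 ± 11.2 FPKM in wild-type platelets (SD, n = 3 each), short of the threshold (log2 fold change -0.33, limma adjusted p = 0.0590). Src, the remaining one, chosen with its values known, measured 8.57 ± 1.42 FPKM in knock-in and 12.5 ± 1.29 FPKM in wild-type platelets (SD, n = 3 each; limma adjusted p = 0.127). Of 15 genes that restrain Src family kinases or act as adaptors of inhibition, 8 were testable, 2 fell and 0 rose, with a median of -0.29, against the same 3.99%, 4.36% and -0.01 over all genes tested. Ubash3b, which encodes a phosphatase that acts on the kinase Syk, fell to 78.6, 66.9 and 67.6 FPKM in knock-in libraries, against 107, 137 and 136 FPKM in wild-type libraries (log2 fold change -0.82, limma adjusted p = 0.0110). Dok2, an adaptor that dampens tyrosine kinase signals, fell to 13.9, 11.6 and 14.8 FPKM in knock-in libraries, against 24.1, 20.3 and 32.9 FPKM in wild-type libraries (log2 fold change -0.87, limma adjusted p = 0.0347). Sh2b3, the adaptor gene known as Lnk and the most abundant of the list, measured 119 ± 16.7 FPKM in knock-in and 151 ± 6.81 FPKM in wild-type platelets (SD, n = 3 each; limma adjusted p = 0.110).

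Genes of the ITAM pathway, the activating side, were listed too. Of 18 listed, 17 were testable, 1 fell and 1 rose, with a median log2 fold change of -0.13. That is 11.8% called, beside 8.36% and a median of -0.01 over all genes tested. Lcp2, which encodes the scaffold SLP-76, fell to 20.7, 23.3 and 14.5 FPKM in knock-in libraries, against 39.7, 41.2 and 48.4 FPKM in wild-type libraries (log2 fold change -1.12, limma adjusted p = 0.0124). Fcer1g, for the FcRγ chain that signals for GPVI, rose to 1685, 2085 and 1833 FPKM in knock-in libraries, against 1354, 1345 and 1406 FPKM in wild-type libraries (log2 fold change 0.44, limma adjusted p = 0.0271). After removal of the length trend the Fcer1g value was 0.09 (adjusted p = 0.517). Its call was also lost with quantile normalization (limma adjusted p = 0.0928). Clec1b, for the receptor CLEC-2 and the most abundant of the list, measured 2434 ± 111 FPKM in knock-in and 2398 ± 225 FPKM in wild-type platelets (SD, n = 3 each; limma adjusted p = 0.903). The Fyn and Inpp5a calls were lost with any 1 library left out, with quantile normalization (adjusted p = 0.0789 for Fyn and 0.0605 for Inpp5a) and with the length trend taken out (0.0701 for Fyn and 0.0543 for Inpp5a), and that of Fyn also without both libraries richest in haemoglobin (0.0536). Without knock-in library 3, without wild-type library 2 or with no variance trend, 0 genes of these 6 lists were called.

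**Figure D4:**
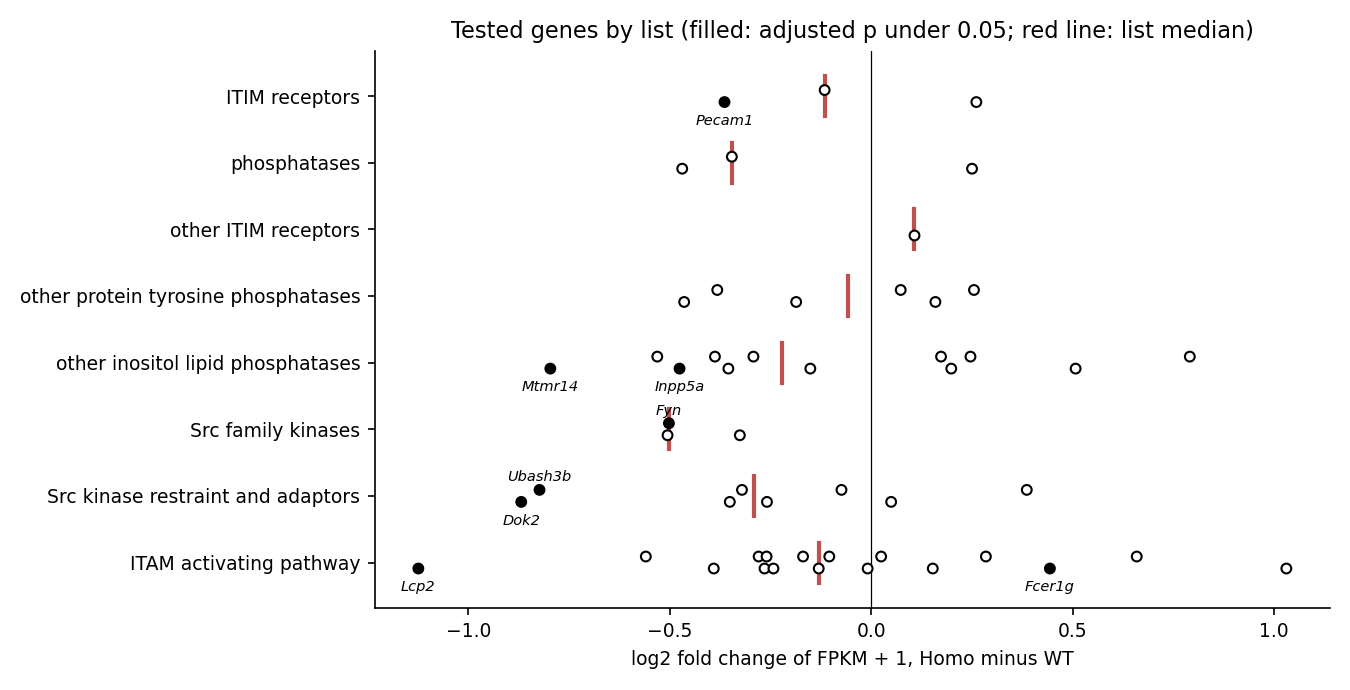
Log2 fold change of FPKM + 1 (Homo minus WT) of each testable gene, by list; filled points passed a limma adjusted p of 0.05 and are named, open points did not, points alternate slightly in height for legibility, and the red line is the list median. Of the 7 filled points outside the 7 genes, 6 lie left of 0 and Fcer1g, at 0.44, lies right of it.

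Pecam1 passed in 10 of 19 alternative settings, with log2 fold changes from -0.42 to -0.28, and Ptprj in 4 of 19, with log2 fold changes from -0.55 to -0.37. Both were lower in the knock-in in all 19.

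**Figure D5:**
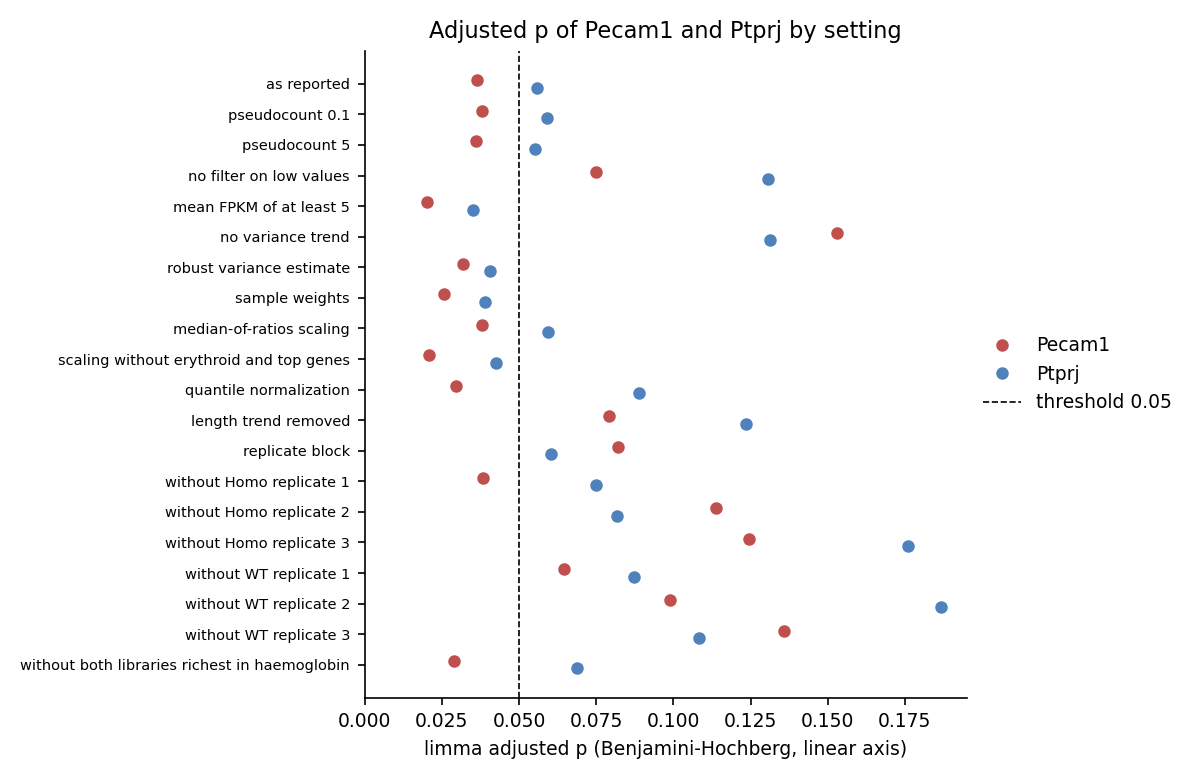
Limma adjusted p (linear axis) of Pecam1 and Ptprj as reported and in each of 19 alternative settings; the dashed line is the threshold of 0.05. Pecam1 ranges from 0.0203 to 0.153 and Ptprj from 0.0352 to 0.187 over the alternatives.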

How the data were processed

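Total RNA of platelets was made into full-length cDNA with the SMART-Seq HT kit and into libraries with Nextera XT, per the labels' protocols. These kits do not mark strand. Each of the 6 libraries has 1 deposited table, with an FPKM for every gene symbol. The tools named are Cuffdiff 2.2.1, TopHat2 2.1.1, SAMtools 0.1.18 and Bowtie2 2.2.8, and the build is mm10, per the submitters' processing notes. Their settings, and the annotation, are not given in the sources used. Reads were not analysed here, so absolute depth is unknown. Relative depth came from the commonest ratio between libraries of values under 0.5 FPKM.

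Values were tested as log2(FPKM + 1), without further scaling, for the 4859 symbols with a mean of at least 1 FPKM, with limma 3.58.1 in R 4.3.3 (variance trend, two-sided, Benjamini-Hochberg adjustment over all of them, threshold 0.05). Fold changes are on that scale, which understates those of low genes. The script was tested on simulated data. Because Ptpn6 was listed at 0 in 3 libraries, its planned log2 ratio to Ptpn11 is undefined there. A version with 1 FPKM added to both genes was tested but set aside, because the added value exceeds every Ptpn6 value. Plain percentages are given instead. Motifs were searched on translated coding sequences past the most hydrophobic stretch.

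The 7 genes and all lists were chosen with earlier results of these data known. Named are the 7 genes, called genes and the most abundant gene of each list, the most abundant marker of each cell type, and the 3 genes with the profile nearest to a called member, of which 1 is not reported here. The alternatives tried were the pseudocount, the filter on low values, variance options, scalings, removal of a length trend, the replicate block, and libraries left out.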

Additional observations from a re-analysis of the deposited data

How the results depend on the processing

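Directions of the 6 tested genes held in all 19 alternatives. Against 406 genes called as reported, 107 were called with no filter on low values, 728 without both libraries richest in haemoglobin, and 0 without the variance trend (1197 at an unadjusted p under 0.05). With 1 library left out the count ran from 0 to 610. Leaving out a knock-in library gave 610 (library 1), 85 (library 2) or 0 (library 3, with 994 at an unadjusted p under 0.05). Leaving out wild-type library 2 gave 41, and for library 3 of that genotype the count was 113. Of the 7 genes, 1 was called as reported. The count was 0 with no filter, without the variance trend, after length trend removal and with the replicate block. It was 2, Pecam1 and Ptprj, at a mean of at least 5 FPKM, with the robust variance estimate, with sample weights and with scaling without erythroid and top genes, and 0 to 1 with 1 library left out. Clec1b, not called in any setting, was -0.028 with that scaling, -0.097 with quantile normalization, -0.041 to 0.094 with 1 library left out and -0.0026 without both libraries richest in haemoglobin. G6b, also uncalled, was -0.0011 to 0.16 with 1 library left out, both turning negative without library 1 of the wild type. The cause of these shifts was not tested. With 1 library left out of each, the calls of the other named genes were kept in 4 of 6 such settings for Mtmr14, 3 for Lcp2, 2 for Ubash3b, 1 for Dok2 and Fcer1g and 0 for Fyn and Inpp5a. Same-numbered libraries deviated together with correlations of 0.158, 0.0235 and 0.141, so the numbers were not taken to pair them. Each wild-type library did correlate best with the knock-in library of its own number. Library 2 of the knock-in correlated best with another number (0.0674). With the replicate block, 306 genes were called, and the adjusted p was 0.0820 for Pecam1, 0.0604 for Ptprj, 0.0653 for Fyn and 0.0638 for Inpp5a. The scalings moved the median of all genes by -0.045 to 0.0086 on the log2 scale. Without counts, no interval for counting error can be given, and 3 libraries a group limit the precision.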

Other observations

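Receptors with an ITIM and activating receptors of platelets were also set side by side within libraries, on the FPKM scale and without a test, after their values were seen. The sum of Treml1, G6b, Pecam1 and Ceacam1 was 0.791, 0.803 and 0.776 times the sum of Gp6 and Clec1b, which encode the collagen and podoplanin receptors, in knock-in libraries 1, 2 and 3, against 0.856, 0.813 and 0.784 times in wild-type libraries 1, 2 and 3. These values overlapped. Fcer1g, for the chain that pairs with GPVI, was 3.56, 3.94 and 3.52 times the Gp6 level in knock-in libraries 1, 2 and 3, against 2.31, 2.21 and 2.25 times in wild-type libraries 1, 2 and 3. Every knock-in library was above every wild-type library. The log2 fold change of Fcer1g was 0.44 as deposited and 0.09 with the trend on transcript length taken out, and its longest annotated transcript has 683 bases, against 5900 for Gp6.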
